A study of Mus musculus with 88 samples.

Results

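The 10 genes described here encode or mark the transcription factor network of naive mouse pluripotency. They are Esrrb, Nanog, Klf2, Klf4, Klf5, Tfcp2l1, Zfp42, Tbx3, Prdm14 and Nr0b1. The genes were chosen by name and not by their values, though with earlier results of these data known. All 10 were found in each of the 4 tables used. These tables hold 53697 genes for mesoderm differentiation, 54393 for endoderm differentiation, 26007 for bulk embryoid bodies and 15830 for single cells. All 10 also passed the filters on low counts in each fit, so none of the counts over members below leaves a gene out. The series holds 88 samples of mouse embryonic stem cells (ESCs) and their derivatives. The study asked what happens at exit from pluripotency when Polycomb Repressive Complex 2 (PRC2), which deposits the repressive mark H3K27me3, lacks a subunit. Eed is a core subunit, whereas Mtf2 and Jarid2 are accessory subunits that help to bring the complex to its sites.

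ESCs were kept in serum with LIF. In directed differentiation, E14 WT, Mtf2 null (a gene trap line, GT) and Jarid2 null cells were sampled undifferentiated (UD) and at 5, 24 and 48 h. There were 2 libraries per group and 48 in all. The mesoderm series used Activin A, BMP4, CHIR99021 and FGF2 for 24 h and then A-83-01 with BMP4. The endoderm series used Activin A, CHIR99021 and FGF2 for 24 h and then Activin A with DM3189. Embryoid bodies (EBs), which are free-floating aggregates that form all germ layers, were made by aggregation with LIF followed by LIF removal. For single cells, 16 EB libraries cover days 0, 4, 7 and 10 of WT and of lines null for Eed, Jarid2 or Mtf2. For bulk RNA, 24 EB samples cover days 0, 2, 4 and 7. They come from lines labelled null for the same genes, each with its own WT line (Pcl1-3 WT, JM8 and J1). The duplicates of directed differentiation were called technical in the study's methods, so p-values measure the spread between these libraries and not between independent lines. Each null genotype in directed differentiation is a single line. E14, the WT there and in single cells, is not the WT line that the study's methods match by background to any null line. In those comparisons genotype and parental line cannot be told apart.

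In serum with LIF, LIF signals through its receptor to STAT3, which maintains Klf4 and Tfcp2l1. Tbx3 has been placed on a parallel branch, and these inputs converge on Esrrb, Nanog and the Klf factors. Esrrb and Nr0b1 are orphan nuclear receptors. Klf2, Klf4 and Klf5 are zinc finger factors that bind GC-rich elements, and Prdm14 dampens FGF signalling and DNA methylation. Zfp42 (Rex1) is a zinc finger protein that is used as the marker of the naive state rather than being required for it. When ESCs leave pluripotency this network is dismantled, while Pou5f1 and Sox2 persist longer.

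On GRCm38 the genes on which most results below turn are Zfp42 on chromosome 8 (43295063 to 43306980, minus strand), Klf4 on chromosome 4 (55527143 to 55532466, minus strand), Tfcp2l1 on chromosome 1 (118627945 to 118685168, plus strand) and Nr0b1 on chromosome X (86191764 to 86195947, plus strand). Their promoters are shown because the 4 genes took different courses. In directed differentiation, set against E14 WT, Zfp42 was low in Mtf2 null cells throughout. Klf4 and Tfcp2l1 were high in undifferentiated Mtf2 null cells there. The bulk EB samples labelled Mtf2 null, set against another WT line, did not show these differences. Nr0b1 lay above WT in Mtf2 null and below WT in labelled Jarid2 null libraries at 48 h of the mesoderm series. PRC2 is known to occupy CpG-rich promoters. The 250 bases before the start of each gene, from RefSeq on GRCm38.p6, are printed 5′ to 3′ on the gene's own strand, with capitals marking matches to the searched motifs. The windows are chr8:43307010-43307259 (minus strand), chr4:55532476-55532725 (minus strand), chr1:118627695-118627944 (plus strand) and chrX:86191525-86191774 (plus strand).

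Zfp42: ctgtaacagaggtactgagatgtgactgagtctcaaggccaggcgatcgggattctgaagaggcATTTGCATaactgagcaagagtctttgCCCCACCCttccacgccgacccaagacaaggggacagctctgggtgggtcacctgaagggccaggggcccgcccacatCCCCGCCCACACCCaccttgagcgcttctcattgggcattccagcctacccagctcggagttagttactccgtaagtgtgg
Klf4: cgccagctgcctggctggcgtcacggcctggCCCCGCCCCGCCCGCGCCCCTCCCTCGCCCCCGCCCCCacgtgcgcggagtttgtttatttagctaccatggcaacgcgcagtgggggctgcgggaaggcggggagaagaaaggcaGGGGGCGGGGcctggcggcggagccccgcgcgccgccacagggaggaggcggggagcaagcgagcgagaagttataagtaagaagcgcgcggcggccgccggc
Tfcp2l1: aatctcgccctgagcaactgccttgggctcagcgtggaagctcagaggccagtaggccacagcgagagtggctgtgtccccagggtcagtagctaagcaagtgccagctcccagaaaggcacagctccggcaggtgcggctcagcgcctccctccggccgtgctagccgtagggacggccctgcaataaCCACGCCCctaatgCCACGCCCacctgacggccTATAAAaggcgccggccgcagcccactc
Nr0b1: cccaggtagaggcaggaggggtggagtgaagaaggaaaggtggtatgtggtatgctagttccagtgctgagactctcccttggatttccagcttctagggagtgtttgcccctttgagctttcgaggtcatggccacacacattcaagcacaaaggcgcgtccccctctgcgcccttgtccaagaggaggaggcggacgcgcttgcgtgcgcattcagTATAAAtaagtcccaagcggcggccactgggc

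The letters searched, on both strands, were CCNCNCCC for KLF factors (its matches may overlap one another), ATGCAAAT for the octamer bound by Pou5f1, TTCNNGGAA for STAT3, TCAAGGTCA for Esrrb and TATAAA for a TATA box. Among 27025 RefSeq promoters of the same length, 45.6% held the KLF letters, 1.61% the octamer, 4.17% the STAT3 letters, 0.366% the Esrrb letters and 13.0% the TATA letters. The Zfp42 window held 3 KLF matches and 1 octamer, and the Klf4 window 9 KLF matches. The Tfcp2l1 window had 2 KLF matches and 1 TATA match, and the Nr0b1 window 1 TATA match and no KLF match. CG dinucleotides numbered 32 in the Klf4 window, 16 in Tfcp2l1, 11 in Nr0b1 and 9 in Zfp42, against a median of 6 over all promoters. These matches are descriptions of the windows, and entries were found for 7 of the 10 genes, Klf5, Tbx3 and Prdm14 being the others.

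The targeted genes and the markers of other cells were checked first. Mtf2 was at 33.8 and 31.4 CPM (counts relative to the library's total, scaled by TMM) in the undifferentiated Mtf2 null mesoderm libraries against 375 and 499 in WT. In the undifferentiated libraries with the Jarid2 null label, Jarid2 was at 326 and 308 CPM, lower without overlap than 473 and 362 in WT but not near 0. At 5 h it was at 622 and 609.2 against 639 and 661, so those libraries are named by their label. In single cells at day 0 each target was lower in its own null line (Mtf2 56.3 against 793 UMI CPM, Jarid2 146 against 594, Eed 11.5 against 478). The summed level of 7 primitive endoderm markers (Gata4, Gata6, Sox17, Sox7, Pdgfra, Dab2 and Foxa2, none at 0) was 118 to 124 CPM in undifferentiated Mtf2 null mesoderm libraries and 110.2 to 121 in the endoderm ones, against 21.2 to 23.9 and 24.1 to 27.01 in WT. Feeder fibroblast markers summed to at most 12.4 CPM in any directed library, and Col3a1, Dcn or Lum were at 0 in many groups. The endoderm label was not borne out by definitive endoderm markers, since Sox17, Foxa2, Cxcr4, Gsc and Cer1 summed to 0.94 to 0.991 CPM in WT endoderm libraries at 48 h, with Cer1 at 0. Mesoderm markers summed to 22.7 to 28 CPM in WT mesoderm libraries at 48 h against 5.99 to 7.11 undifferentiated. Undifferentiated libraries with the same number in the mesoderm and endoderm series were closer to each other (2.03 to 3.29 times sampling noise) than those with different numbers (3.65 to 8.06 times). The undifferentiated libraries of both series are not independent of each other. In undifferentiated WT, 9 of the 10 members were higher in replicate 1 than in replicate 2 in both series, with a median ratio of 1.44 and 1.43. In the libraries labelled Jarid2 null 10 of 10 were higher in replicate 1 in both series, with median ratios of 1.25 and 1.26, and in Mtf2 null 4 and 5 of 10, with median ratios of 0.984 and 1.03.

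Undifferentiated Mtf2 null cells held more mRNA of 4 members and less of 1 than WT cells did. Klf5, Nr0b1, Tfcp2l1 and Klf4 were higher, by 1.24 to 1.76 on the log2 scale. Zfp42 was lower, with a log2 fold change of -2.46. A member was called when edgeR's quasi-likelihood test gave a Benjamini-Hochberg adjusted p under 0.001 over all genes tested and a log2 fold change beyond 1 in either direction, the limits the study set. By this rule 5 of 10 members were called with the libraries of both series in one fit, beside 14.5% of all genes tested. This fit counts same-numbered libraries of the series as separate, though they are not independent. The SEs and p-values given for undifferentiated cells of both series may therefore be too small.

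Klf5 supports self-renewal and proliferation of ESCs. Its level was 1136 and 1054 CPM in the Mtf2 null mesoderm libraries and 1308 and 1205 in the endoderm ones, against 409.6 and 281 and 426 and 281 in WT. The genotypes did not overlap, and the log2 fold change was 1.76 (SE 0.13, adjusted p = 3.04e-08). Klf4, a direct target of STAT3, was at 336 and 338 and 355 and 356 CPM in Mtf2 null against 171 and 120.2 and 179.7 and 120.4 in WT, a log2 fold change of 1.24 (SE 0.12, adjusted p = 3.40e-07). Tfcp2l1, which is likewise downstream of STAT3, was at 1023 and 816 and 916 and 772 CPM against 352 and 231 and 364 and 234, a log2 fold change of 1.60 (SE 0.15, adjusted p = 3.76e-07). For both STAT3 targets every Mtf2 null library lay above every WT library. Nr0b1 (Dax1), which interacts with Pou5f1 and restrains differentiation genes, was at 221 and 269 and 236 and 271 CPM against 81.3 and 75.8 and 83.4 and 75.9, a log2 fold change of 1.66 (SE 0.10, adjusted p = 2.83e-09). Its WT libraries differed little among themselves, so the gap between genotypes was much wider than the spread.

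Zfp42 moved the other way. It was at 69.6 and 73.6 CPM in the Mtf2 null mesoderm libraries and 67.8 and 70.6 in the endoderm ones, against 408 and 379.7 and 404 and 371 in WT. The log2 fold change of Zfp42 was -2.46 (SE 0.07, adjusted p = 1.69e-12), with no overlap between the genotypes. All 5 calls were kept in each of the 12 refits that left out 1 library, in which the same-numbered library of the other series remained. In fits to 1 series alone, the Klf4 call was lost without WT undifferentiated replicate 2, at a log2 fold change of 0.98 in mesoderm and 0.99 in endoderm, and the other 4 calls were kept in all 24 refits of each series. The same 5 genes were called when same-numbered libraries were added together across the series, an alternative chosen after seeing the data.

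The other 5 members were not called in undifferentiated Mtf2 null cells, since their differences stayed within the fold limit. Esrrb was at 655 and 651 and 634 and 600.2 CPM against 447 and 286 and 445 and 288, a log2 fold change of 0.81 (SE 0.15, adjusted p = 2.37e-04). Klf2 had a log2 fold change of 0.66 (SE 0.16, adjusted p = 0.00222) and Prdm14 of 0.68 (SE 0.14, adjusted p = 8.95e-04). Nanog differed by 0.17 (SE 0.08, adjusted p = 0.0905) and Tbx3 by -0.43 (SE 0.14, adjusted p = 0.0163) on the log2 scale. Tbx3 overlapped between the genotypes in the mesoderm series, where its levels were 121 and 104 CPM in Mtf2 null and 190.3 and 118 in WT. All 7 primitive endoderm markers were called higher in the same Mtf2 null libraries, with a median log2 fold change of 3.09. Whether cells of that lineage were present was not tested, nor was the part of these markers in the member differences. In bulk RNA, more cells expressing a gene and more RNA per cell cannot be told apart.

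The libraries labelled Jarid2 null differed less from WT before differentiation, and none of the 10 members was called, beside 1.1% of all genes tested. 7 members had an unadjusted edgeR p under 0.05 and DESeq2 called 0. Zfp42 was at 266 and 242 CPM in the mesoderm series and 262 and 235 in the endoderm series, below all WT values. Its log2 fold change was -0.66 (SE 0.07, adjusted p = 1.95e-05), which stayed short of the fold limit. Prdm14 had the largest fitted difference of the members there, -0.70 (SE 0.15, adjusted p = 0.00423) on the log2 scale, at levels of 9.53 and 5.64 CPM against 14.3 and 11.0.

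**Figure D1:**
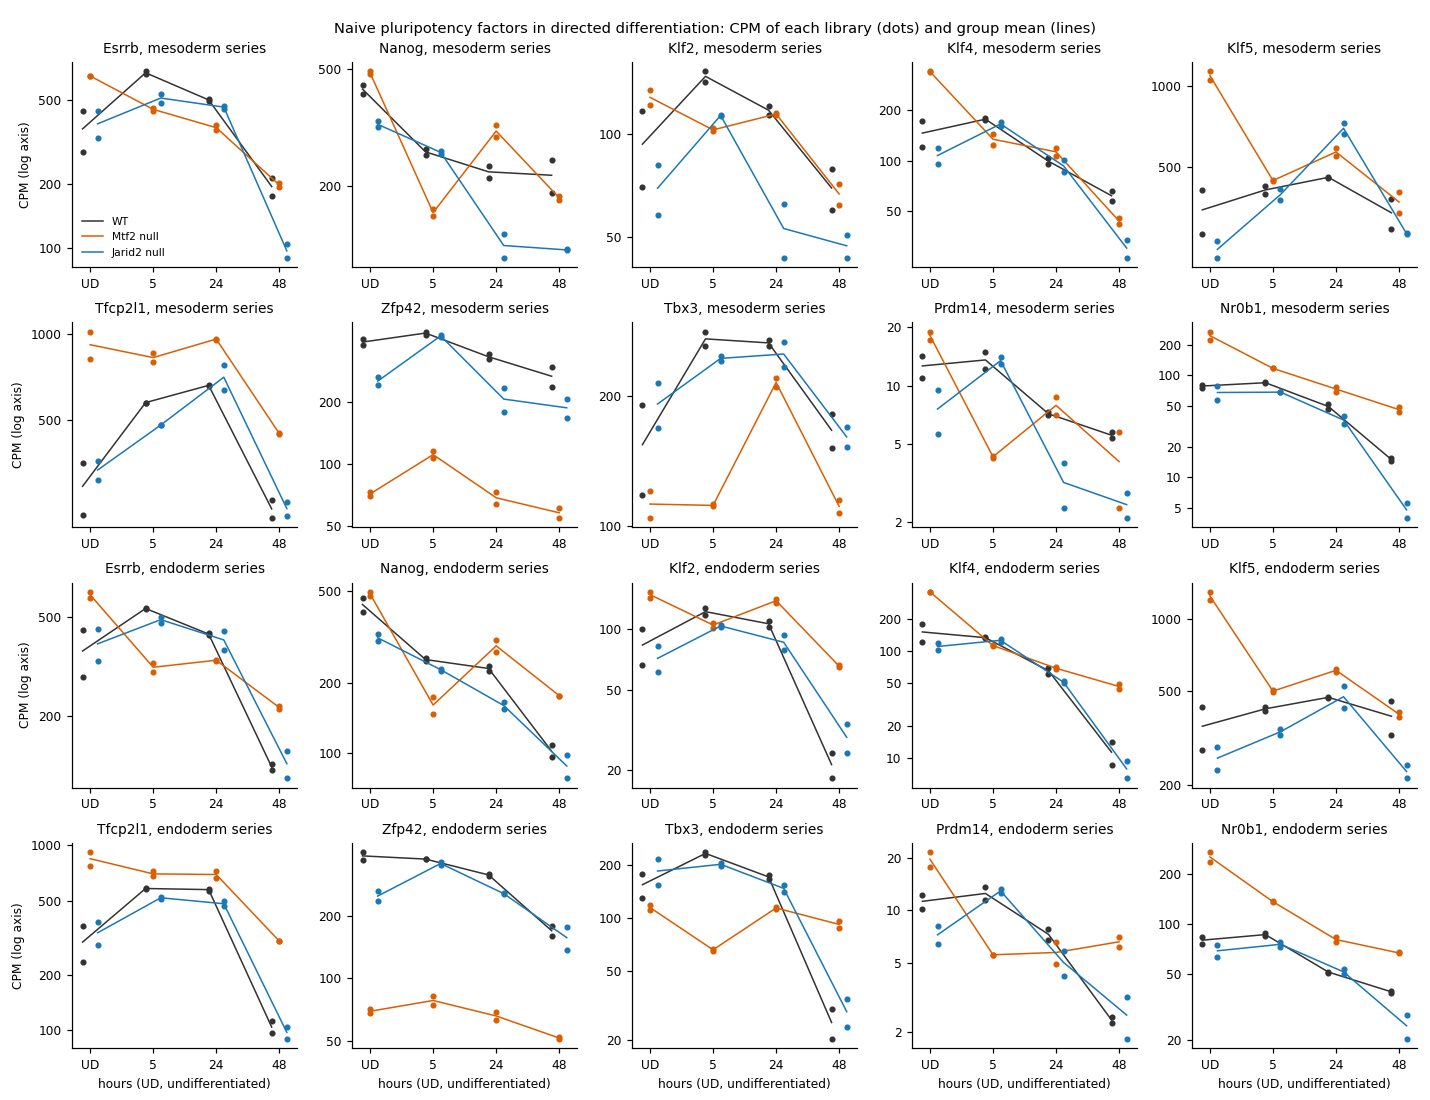
CPM (log axis) of the 10 members against hours of differentiation (evenly spaced) in the mesoderm series (upper 2 rows) and the endoderm series (lower 2 rows), with dots for libraries, lines for group means and colours for WT, Mtf2 null and Jarid2 null. Zfp42 of Mtf2 null libraries lies between 51.1 and 115 CPM at all times, below every WT library.

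In WT cells few of the 10 genes passed the test within the first day. By 48 h 9 were called lower in the endoderm series and 2 in the mesoderm series. At 5 h none of the 10 members was called against undifferentiated cells in either series, beside 4.13% of all genes in the mesoderm series and 2.1% in the endoderm series. By edgeR 5 and 5 members had an unadjusted p under 0.05 then, and DESeq2 called 0 and 0. At 24 h 1 member was called in each series, beside 6.96% and 5.31% of all genes. Tfcp2l1 was higher in the mesoderm series at 658 and 665 CPM against 352 and 231 undifferentiated (log2 fold change 1.18, SE 0.16, adjusted p = 1.11e-05). Klf4 was lower in the endoderm series at 68.9 and 61.3 CPM against 179.7 and 120.4 (-1.21, SE 0.17, adjusted p = 1.06e-05). The Tfcp2l1 call was lost without mesoderm WT undifferentiated replicate 2 (log2 fold change 0.91, adjusted p = 3.93e-04). The Klf4 call was lost without endoderm WT undifferentiated replicate 1 (log2 fold change -0.88, adjusted p = 3.43e-04).

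At 48 h in the endoderm series 9 of 10 members had fallen in WT, beside 3% of all genes called lower. Klf4 fell furthest, to 8.49 and 14.0 CPM (log2 fold change -3.74, SE 0.20, adjusted p = 1.89e-11). Tbx3 followed, at 20.4 and 30.1 CPM against 179 and 131 (-2.62, SE 0.19, adjusted p = 1.45e-09). Neither gene overlapped between the times. Nanog, whose product holds differentiation genes in check, went from 408 and 466 to 108 and 95.8 CPM (-2.10, SE 0.12, adjusted p = 5.18e-11). Klf2, which is kept on by Mek inhibition rather than by LIF, went from 101 and 66.4 to 24.5 and 18.3 CPM (-1.96, SE 0.19, adjusted p = 6.64e-08). The other falls ranged from -1.04 for Nr0b1 to -2.26 for Prdm14 on the log2 scale, with Zfp42 at -1.20, Tfcp2l1 at -1.52 and Esrrb at -1.56. Klf5 stood apart, at 326 and 454 CPM against 426 and 281 undifferentiated, with overlapping values and a log2 fold change of 0.14 (SE 0.16, adjusted p = 0.545). The Nr0b1 call, close to the fold limit, was lost without endoderm WT undifferentiated replicate 1 (log2 fold change -0.95, adjusted p = 4.67e-05).

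At 48 h in the mesoderm series only Nr0b1 and Klf4 were called lower in WT, 2 of 10 beside 3.08% of all genes called lower. Further members changed short of the limits. The median log2 fold change of the members was -0.73, and 7 had an unadjusted edgeR p under 0.05. Nanog, not called, went from 412 and 441 to 246 and 189 CPM without overlap. Nr0b1 went from 81.3 and 75.8 to 15.4 and 14.5 CPM (-2.39, SE 0.16, adjusted p = 5.17e-10). Klf4 went from 171 and 120.2 to 57.8 and 66.04 (-1.23, SE 0.15, adjusted p = 3.53e-06), a call that was lost without mesoderm WT undifferentiated replicate 1 (log2 fold change -0.95, adjusted p = 1.20e-04). Esrrb was at 176 and 215 CPM against 447 and 286 (-0.91, SE 0.16, adjusted p = 2.10e-04), and Tbx3 at 151 and 182 against 190.3 and 118 (0.11, SE 0.16, adjusted p = 0.639). Tbx3, a T-box factor that also acts in mesoderm and in extraembryonic endoderm, had values that overlapped with undifferentiated cells under the mesoderm protocol.

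The change from undifferentiated to 48 h was compared between the protocols within each genotype, in one fit of all 48 libraries. In WT 6 of 10 members differed between the protocols, beside 1.35% of all genes. The mesoderm-minus-endoderm difference was 2.73 (SE 0.26, adjusted p = 8.37e-09) for Tbx3, 2.51 (SE 0.26, adjusted p = 3.09e-08) for Klf4 and 1.13 (SE 0.16, adjusted p = 1.03e-05) for Nanog. It was above 0 for each, so the mesoderm change was the higher one. Nr0b1 was the exception among the called genes with -1.35 (SE 0.20, adjusted p = 1.94e-05), since it fell further in mesoderm conditions. Klf2 (1.55, SE 0.29, adjusted p = 7.00e-04) and Tfcp2l1 (1.26, SE 0.24, adjusted p = 5.55e-04) were less secure. The Klf2 call was lost in 4 of 8 refits that each left out 1 library (highest adjusted p = 0.018), and the Tfcp2l1 call in 6 of 8 refits that each left out 1 library (highest adjusted p = 0.0183). The Nanog call was lost without mesoderm WT 48 h replicate 1 (log2 fold change 0.93, adjusted p = 3.72e-04). In Mtf2 null cells none of the members differed between the protocols, beside 0.617% of all genes (1 at an unadjusted p under 0.05 and 0 called by DESeq2). The difference was 0.31 (SE 0.26, adjusted p = 0.761) for Tbx3 and 0.01 (SE 0.24, adjusted p = 1) for Klf4. Whether the genotypes themselves differ in this contrast was not tested. In the labelled Jarid2 null libraries 4 of 10 differed, beside 1.97% of all genes. They were Tbx3 (2.41, SE 0.26, adjusted p = 4.81e-08), Nr0b1 (-2.30, SE 0.22, adjusted p = 5.67e-09), Klf4 (1.99, SE 0.27, adjusted p = 2.69e-06) and Tfcp2l1 (1.33, SE 0.23, adjusted p = 1.92e-04). The Tfcp2l1 call was lost without mesoderm labelled Jarid2 null undifferentiated replicate 2 (log2 fold change 1.21, adjusted p = 0.00375), without endoderm labelled Jarid2 null 48 h replicate 2 (log2 fold change 1.22, adjusted p = 0.00442) and without endoderm labelled Jarid2 null undifferentiated replicate 1 (log2 fold change 1.11, adjusted p = 0.0051).

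In Mtf2 null cells several of these mRNAs fell within 5 h of the change of medium, in both protocols. From undifferentiated to 5 h, 5 members fell in the mesoderm series and 4 in the endoderm series, beside 3.89% and 2.19% of all genes called lower. In WT none was called at that time. Klf5 dropped to 446 and 443 CPM in the mesoderm series and 493 and 503 in the endoderm series, next to WT values of 423 and 397 and 411 and 427. Klf4 dropped to 145 and 123 and 113 and 111 CPM, below the WT values of 179 and 173 and 132 and 134. Against WT at 5 h, Klf5 differed by 0.12 (SE 0.15, adjusted p = 0.628) in mesoderm and 0.25 (SE 0.16, adjusted p = 0.279) in endoderm. Klf4 differed by -0.39 (SE 0.15, adjusted p = 0.0562) and -0.24 (SE 0.16, adjusted p = 0.284), and none of these was called. Nanog was at 166 and 158 and 148 and 174 CPM, from 479 and 491 and 476 and 496. Its log2 fold change was -1.58 (SE 0.12, adjusted p = 2.51e-08) in the mesoderm series, where the WT value, not called, was -0.71 (SE 0.12, adjusted p = 1.31e-04).

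The difference in the 5 h change between Mtf2 null and WT was tested as an interaction. It was called for 4 of 10 members in the mesoderm series and 7 of 10 in the endoderm series, beside 2.09% and 2.66% of all genes. Both series gave a call for Klf5 (-1.55, SE 0.22, adjusted p = 7.96e-05 in mesoderm and -1.58, SE 0.23, adjusted p = 9.18e-05 in endoderm) and for Klf4 (-1.61, SE 0.21, adjusted p = 5.70e-05 and -1.49, SE 0.23, adjusted p = 1.38e-04). The same held for Esrrb (-1.41, SE 0.23, adjusted p = 3.75e-04 and -1.54, SE 0.23, adjusted p = 9.15e-05) and for Nr0b1 (-1.17, SE 0.20, adjusted p = 4.31e-04 and -1.01, SE 0.17, adjusted p = 2.67e-04). Esrrb, which activates naive genes together with Nanog, was at 665 and 687 CPM in WT mesoderm libraries at 5 h and at 462 and 446 in Mtf2 null. Its WT mean rose from 367 to 676 CPM in mesoderm and from 366 to 544 in endoderm, neither called. Endoderm WT means also went from 299 to 583 for Tfcp2l1 and from 155 to 234 for Tbx3, but from 150 to 133 for Klf4. Mtf2 null means there went from 844 to 699 for Tfcp2l1 and from 115 to 65.8 for Tbx3. For Esrrb, Tfcp2l1 and Tbx3 the interaction thus includes a WT rise. Prdm14 (-1.97, SE 0.29, adjusted p = 9.50e-05), Tbx3 (-1.40, SE 0.25, adjusted p = 5.29e-04) and Tfcp2l1 (-1.23, SE 0.22, adjusted p = 6.03e-04) were called in the endoderm series and not in the mesoderm series. Whether the series differ was not tested. The endoderm calls with the least reserve were Tfcp2l1, lost in 12 of the 24 refits that each left out 1 library, Nr0b1, lost in 10, and Tbx3, lost in 9. Their highest adjusted p was 0.00563, 0.00249 and 0.00497. In mesoderm Esrrb was lost in 7 of 24 refits (highest adjusted p = 0.00363) and Nr0b1 in 6 (highest adjusted p = 0.00403). In the endoderm series Klf4 was lost without endoderm Mtf2 null 5 h replicate 2 (log2 fold change -1.48, adjusted p = 0.00145) and without endoderm WT 5 h replicate 1 (log2 fold change -1.50, adjusted p = 0.00111). The endoderm Esrrb call was lost without endoderm Mtf2 null 5 h replicate 2 (log2 fold change -1.49, adjusted p = 0.00126). The Prdm14 call was lost without endoderm Mtf2 null 5 h replicate 2 (log2 fold change -1.97, adjusted p = 0.00107), without endoderm WT 5 h replicate 2 (log2 fold change -1.82, adjusted p = 0.001) and without endoderm WT undifferentiated replicate 2 (log2 fold change -1.84, adjusted p = 0.00109). Klf5 in both series and Klf4 in mesoderm were kept in all refits. Primitive endoderm markers in the Mtf2 null libraries moved with the members from undifferentiated to 5 h, to a sum of 55.2 to 61.1 CPM in mesoderm and 59.4 to 62.2 in endoderm libraries. Their part was not tested.

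Set against WT at the same time, 3 of 10 members were lower in Mtf2 null cells at 5 h in each series, beside 4.11% and 4.03% of all genes called lower. They were Zfp42, Tbx3 and Prdm14 in both series. Tbx3 was at 66.9 and 64.7 CPM in Mtf2 null endoderm libraries against 229.7 and 238 in WT (-1.83, SE 0.18, adjusted p = 8.86e-08). It was at 111 and 112 against 260.2 and 282 in the mesoderm series (-1.28, SE 0.17, adjusted p = 6.51e-06). Prdm14 had low levels throughout, 4.36 and 4.27 CPM against 14.9 and 12.2 in mesoderm (-1.65, SE 0.30, adjusted p = 2.42e-04). Its levels were 5.57 and 5.53 against 11.4 and 13.6 in endoderm (-1.17, SE 0.22, adjusted p = 2.67e-04). The groups did not overlap, but the Prdm14 calls were lost in 4 of 24 refits that each left out 1 library (highest adjusted p = 0.00662) in the mesoderm series and in 4 of 24 refits that each left out 1 library (highest adjusted p = 0.00654) in the endoderm series. Zfp42 was below WT at each time in each series, with log2 fold changes between -1.72 (endoderm, 48 h) and -2.49 (endoderm, undifferentiated), all called in each refit. At 24 h Zfp42 was the 1 member called in Mtf2 null cells, in both series, beside 5.72% and 6.58% of all genes.

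At 48 h in the endoderm series Mtf2 null cells held more of several members than WT did. Of 10 members 5 were higher and Zfp42 was lower, beside 10.5% of all genes called. Klf4 was at 48.4 and 44.3 CPM against 8.49 and 14.0 in WT (2.05, SE 0.20, adjusted p = 3.91e-08). Tbx3 was at 96.7 and 87.1 against 20.4 and 30.1 (1.86, SE 0.19, adjusted p = 9.14e-08), and Klf2 was at 66.3 and 65.3 against 24.5 and 18.3 (1.62, SE 0.19, adjusted p = 6.11e-07). None of these overlapped between the genotypes. Tfcp2l1 was at 303 and 303 CPM against 96.2 and 112 (1.54, SE 0.16, adjusted p = 1.47e-07). Prdm14 was at 6.14 and 7.05 against 2.43 and 2.26 (1.49, SE 0.26, adjusted p = 8.80e-05), a call that was lost without endoderm Mtf2 null 48 h replicate 2 (log2 fold change 1.38, adjusted p = 0.00171), without endoderm WT 48 h replicate 1 (log2 fold change 1.53, adjusted p = 0.00138) and without endoderm WT 48 h replicate 2 (log2 fold change 1.44, adjusted p = 0.00246). As an interaction, the 48 h change was called for 2 of 10 members. Their change was higher in Mtf2 null than in WT for Tbx3 (2.30, SE 0.26, adjusted p = 2.08e-06) and lower for Klf5 (-1.80, SE 0.23, adjusted p = 1.23e-05), beside 5.24% of all genes. Klf5 fell in Mtf2 null cells from its high start to 407 and 389 CPM, within the WT range of 326 and 454. Primitive endoderm markers summed to 462 to 538 CPM in these Mtf2 null libraries against 15.4 to 20.6 in WT, with none of the 7 at 0. Their part in the higher members was not tested.

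In the mesoderm series at 48 h 2 of 10 members were called, Nr0b1 higher and Zfp42 lower, beside 6.82% of all genes. Nr0b1 was at 43.4 and 48.8 CPM in Mtf2 null against 15.4 and 14.5 in WT (1.63, SE 0.16, adjusted p = 1.16e-07). The 48 h change of Klf4 and Klf5 was lower than in WT, with interactions of -1.71 (SE 0.22, adjusted p = 3.44e-05) and -1.53 (SE 0.22, adjusted p = 8.08e-05). These were 2 of 10 members, beside 2.71% of all genes. The Klf5 call was lost without mesoderm Mtf2 null 48 h replicate 2 (log2 fold change -1.41, adjusted p = 0.00107). Primitive endoderm markers were at 359.7 to 381 CPM in Mtf2 null and 26.2 to 27.6 in WT there, also with none at 0. Klf4, Tbx3 and Klf2 were not called against WT in these libraries. At 24 h the interaction was called for Klf5 and Esrrb in mesoderm and for Klf5, Tfcp2l1 and Nr0b1 in endoderm, beside 2.27% and 2.36% of all genes. Each of these calls was lost in 5 to 16 of 24 refits that left out 1 library (highest adjusted p = 0.008).

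**Figure D2:**
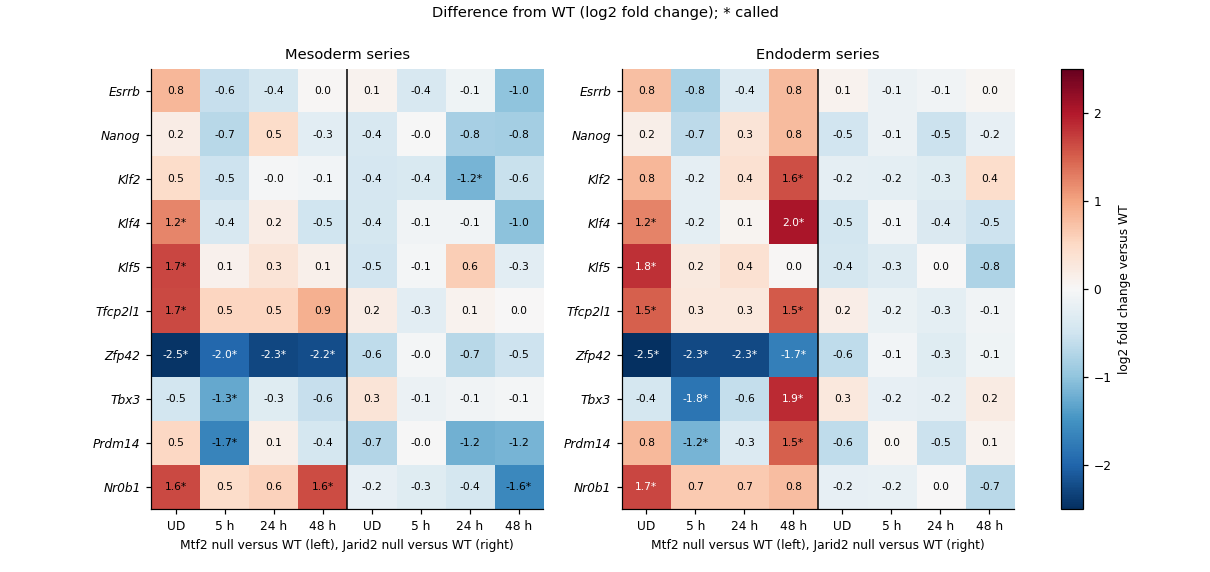
Log2 fold changes against WT (numbers and colours) of the 10 members at each time in the mesoderm (left) and endoderm (right) series, for Mtf2 null and labelled Jarid2 null libraries, with asterisks on called values. Zfp42 is marked lower in all 8 Mtf2 null columns, and Klf4, Klf5, Nr0b1 and Tfcp2l1 are marked higher in the undifferentiated ones.

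The libraries labelled Jarid2 null gave 2 member calls against WT over all times and both series, Klf2 at 24 h and Nr0b1 at 48 h, both lower and both in the mesoderm series. Klf2 was at 43.5 and 62.6 CPM against 121 and 114 in WT (-1.15, SE 0.20, adjusted p = 4.81e-04), 1 of 10 beside 1.24% of all genes called lower. The call was lost without mesoderm labelled Jarid2 null 24 h replicate 1 (log2 fold change -0.91, adjusted p = 0.03), without mesoderm WT 24 h replicate 1 (log2 fold change -1.12, adjusted p = 0.00754) and without mesoderm WT 24 h replicate 2 (log2 fold change -1.20, adjusted p = 0.00488). Nr0b1 was at 3.98 and 5.62 CPM against 15.4 and 14.5 (-1.62, SE 0.19, adjusted p = 9.32e-05), 1 of 10 beside 0.0272% called lower. The call was lost without mesoderm labelled Jarid2 null 48 h replicate 1 (log2 fold change -1.41, adjusted p = 0.00134) and without mesoderm WT 48 h replicate 1 (log2 fold change -1.57, adjusted p = 0.00191). Nr0b1 thus lay below WT in the labelled Jarid2 null libraries and above it in Mtf2 null libraries at 48 h of the mesoderm series, with no overlap among the 3 genotypes. Over time, 5 members fell by 48 h in labelled Jarid2 null cells in mesoderm and 8 in endoderm, beside 3.61% and 3.6% of all genes called lower. Among these, the Prdm14 call was lost in 10 of 24 refits without 1 library in mesoderm (highest adjusted p = 0.027) and in 2 of 24 in endoderm (highest adjusted p = 0.00192), and the other calls were kept. None of their interactions with time was called by edgeR (1 to 4 of 10 members per contrast at an unadjusted p under 0.05, and 0 to 2 called by DESeq2). Nr0b1 fell to 3.98 and 5.62 CPM from 78.8 and 57.0 in the mesoderm series (-3.80, SE 0.18, adjusted p = 6.30e-12). Klf5 rose at 24 h in mesoderm, to 729 and 664 CPM from 264 and 229 (1.50, SE 0.15, adjusted p = 4.81e-07). Tfcp2l1 rose too (1.09, SE 0.16, adjusted p = 2.48e-05), a call lost without mesoderm labelled Jarid2 null 24 h replicate 1 (log2 fold change 0.94, adjusted p = 0.00125) and without mesoderm labelled Jarid2 null undifferentiated replicate 2 (log2 fold change 0.97, adjusted p = 0.00115). Nanog fell to 114 and 137 CPM (-1.37, SE 0.12, adjusted p = 7.04e-08).

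The members did not share 1 course over the 24 group means of both series. The Pearson correlation of a member with the mean of the other 9, over group means scaled within each series, was 0.94 for Esrrb and 0.94 for Klf4. It was 0.87 for Klf2 and 0.87 for Prdm14, and 0.77, 0.73 and 0.71 for Nr0b1, Nanog and Tfcp2l1. It was 0.50 for Tbx3, 0.48 for Klf5 and 0.01 for Zfp42. Among 10841 other genes averaging 5 CPM or more in each series, the 5 most like the mean of the members were Cobl (0.94), Nid1 (0.90), Porcn (0.90), Arrdc4 (0.88) and Txnip (0.88). The points share libraries and genotypes, so these values are descriptions.

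Some genes of the lists around the members were called too. In undifferentiated Mtf2 null cells 14.5% of all genes tested were called, and lists with 1 call or none lie below that share. Of 9 genes of the LIF and STAT3 pathway 1 was called. Pim1, a kinase gene induced by STAT3, was higher by 2.63 (SE 0.10, adjusted p = 1.60e-11) on the log2 scale. Of 12 other naive-state genes, Dppa3, which protects maternal methylation marks, was higher (2.59, SE 0.21, adjusted p = 5.91e-08) and Fbxo15 lower (-1.56, SE 0.09, adjusted p = 2.07e-09). Of 11 other Klf genes tested, 4 were higher and none lower, led by Klf6 (1.78, SE 0.11, adjusted p = 3.30e-09) and Klf9 (1.76, SE 0.11, adjusted p = 3.53e-09). Formative and primed genes had 3 of 10 called, all lower. They were Zic2 (-2.85, SE 0.27, adjusted p = 4.39e-07), Dnmt3a (-1.27, SE 0.09, adjusted p = 1.28e-08), a de novo DNA methyltransferase, and Tcf15 (-1.02, SE 0.11, adjusted p = 1.82e-06). Tcf7l1, a repressor of Esrrb and other naive genes, was the 1 of 8 exit regulators called, and was higher (1.26, SE 0.11, adjusted p = 1.38e-07). None of 6 core pluripotency genes was called (4 at an unadjusted p under 0.05), at a median log2 fold change of 0.55 beside -0.04 for all genes. In the libraries labelled Jarid2 null, the calls in these lists were Gbx2 (-1.59, SE 0.13, adjusted p = 2.17e-06), Tdgf1 (-1.05, SE 0.10, adjusted p = 1.06e-05) and Foxd3 (-1.52, SE 0.15, adjusted p = 8.37e-06), all lower, beside 1.1% of all genes tested.

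When WT cells differentiated for 48 h, 3.08% of all genes were called lower in mesoderm and 3% in endoderm. The LIF and STAT3 pathway had 4 of 9 genes lower in each series and none higher. Socs3, the feedback inhibitor of the pathway, was at -4.73 (SE 0.17, adjusted p = 2.97e-13) in mesoderm and -4.88 (SE 0.20, adjusted p = 9.64e-13) in endoderm. Other naive-state genes had 5 of 12 lower in mesoderm and 6 of 12 in endoderm. Gbx2 was at -5.22 (SE 0.28, adjusted p = 5.44e-11) and -2.85 (SE 0.22, adjusted p = 2.72e-09). Tet2, a 5-methylcytosine oxidase gene, was at -1.38 (SE 0.13, adjusted p = 8.44e-08) and -2.63 (SE 0.11, adjusted p = 9.64e-13). Formative and primed genes had 4 of 11 higher and 1 lower in mesoderm and 9 higher and 1 lower in endoderm, beside 5.57% and 5.16% of all genes called higher. In endoderm Fgf5 reached 8.26 (SE 0.54, adjusted p = 3.06e-10) and Otx2 5.41 (SE 0.25, adjusted p = 3.87e-12). The median log2 fold change of that list was 0.76 in mesoderm and 2.64 in endoderm, beside 0.00 and -0.01 for all genes.

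The bulk EB samples follow other WT lines, and their labels need care. Of 276 pairs of samples, the closest were those labelled Mtf2 null and Eed null at day 4 and at day 7. These lay 5.08 and 6.33 times sampling noise apart, closer than any 2 days of 1 line (8.46). The targeted genes were not clearly reduced either. At days 0, 2, 4 and 7 the samples labelled Mtf2 null held Mtf2 at 317, 237, 231 and 164 CPM, against 415, 442, 325 and 383.5 in Pcl1-3 WT. Jarid2 was at 594, 662, 251 and 221 against 504, 642, 277 and 329 in JM8, and Eed was at 111, 206, 107 and 58.2 against 106, 246, 79.0 and 52.5 in J1. Genotype results below therefore refer to labels, and are repeated with days 0 and 2 alone, an alternative chosen after seeing the data.

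Over the 3 WT lines, members had fallen at days 4 and 7 but none was called at day 2. At day 2 none of 10 was called against day 0 by limma at an adjusted p under 0.05, beside 12.7% of all genes (0 at an unadjusted p under 0.05 and 0 by edgeR). At day 4, 3 members had fallen, beside 8.41% of all genes called lower, and at day 7, 5 had, beside 12.6%. Klf4 at days 0, 2, 4 and 7 was at 171, 141, 18.2 and 39.9 CPM in Pcl1-3 WT, 177, 99.6, 17.1 and 21.6 in JM8 and 116, 144, 9.02 and 9.64 in J1. Its log2 fold change at day 4 was -3.41 (SE 0.33, adjusted p = 8.09e-04). All 3 lines were lower at day 4 than at day 0 with no overlap. Tfcp2l1 was at 715, 522, 147 and 213, 605.9, 369, 85.9 and 236 and 535, 345, 23.8 and 108 CPM in the same lines and days (-3.19, SE 0.37, adjusted p = 0.00131 at day 4). Klf5 changed by -2.32 (SE 0.36, adjusted p = 0.00495) at day 4. These 3 were also called at day 7, with Esrrb (-2.54, SE 0.79, adjusted p = 0.0408) and Nr0b1 (-2.77, SE 0.84, adjusted p = 0.0381). Esrrb at day 7 was at 265 CPM in Pcl1-3 WT, 161 in JM8 and 13.9 in J1, so the lines differed widely in how much they kept. Nanog was at 692 CPM at day 7 in Pcl1-3 WT, above its day 0 value of 542. It was at 22.8 in J1 against 475, and Nanog was not called (-1.48, SE 0.71, adjusted p = 0.144). Without JM8 none of the 8 calls remained, and without J1 or Pcl1-3 WT there were 11 each.

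Over all 4 days, 3 of 30 member-by-genotype pairs were called by limma with the day as a block. Each contrast sets 1 labelled line against 1 WT line, and the days stand in as repeats. The p-values thus measure how far such differences varied over the days, and not the spread between replicates or between lines. Tbx3 was higher in the samples labelled Jarid2 null, at 215, 273, 232 and 168 CPM against 59.2, 28.9, 39.1 and 58.96 in JM8 (2.29, SE 0.37, adjusted p = 0.00149), 1 of 10 beside 7.05% of all genes called higher. Each labelled sample was above each JM8 sample, and the call was kept without any 1 day and with days 0 and 2 alone (log2 fold change 2.56, adjusted p = 0.0133). In the samples labelled Mtf2 null Tbx3 was at 233, 182, 84.3 and 129 CPM against 109.9, 101, 27.7 and 35.5 in Pcl1-3 WT (1.35, SE 0.37, adjusted p = 0.0232). Zfp42 was at 349, 305, 245 and 103 against 63.2, 86.1, 43.8 and 49.5 (1.95, SE 0.57, adjusted p = 0.0306), 2 of 10 beside 9.6% of all genes called higher. Both were lost with days 0 and 2 alone (Tbx3 log2 fold change 0.97, adjusted p = 0.145, Zfp42 log2 fold change 2.14, adjusted p = 0.0623). Zfp42 was also lost without any 1 day (highest adjusted p = 0.0885) and Tbx3 without day 0 or day 7 (highest adjusted p = 0.126). The higher Zfp42 in these samples is opposite in sign to the directed Mtf2 null libraries, which were set against another WT line. The members called higher in those undifferentiated libraries were not called in the labelled Mtf2 null EB samples. Their log2 fold changes were 0.18 for Klf4, 0.11 for Klf5, -0.12 for Tfcp2l1 and -0.53 for Nr0b1 (lowest limma adjusted p = 0.677). At day 0 Klf4 was at 184 CPM against 171, Klf5 at 345 against 298, Tfcp2l1 at 579 against 715 and Nr0b1 at 29.1 against 35.8. None of 10 members was called in the samples labelled Eed null, beside 10.6% of all genes, with 4 at an unadjusted p under 0.05 and 0 called by edgeR. Primitive endoderm markers were 7 of 7 higher in the samples labelled Mtf2 null and in those labelled Jarid2 null, with median log2 fold changes of 2.95 and 3.15. Of the 7 markers 0 were called in those labelled Eed null (0 at an unadjusted p under 0.05). Tbx3 is known to be expressed in that lineage. Whether such cells were present, and their part, was not tested.

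**Figure D3:**
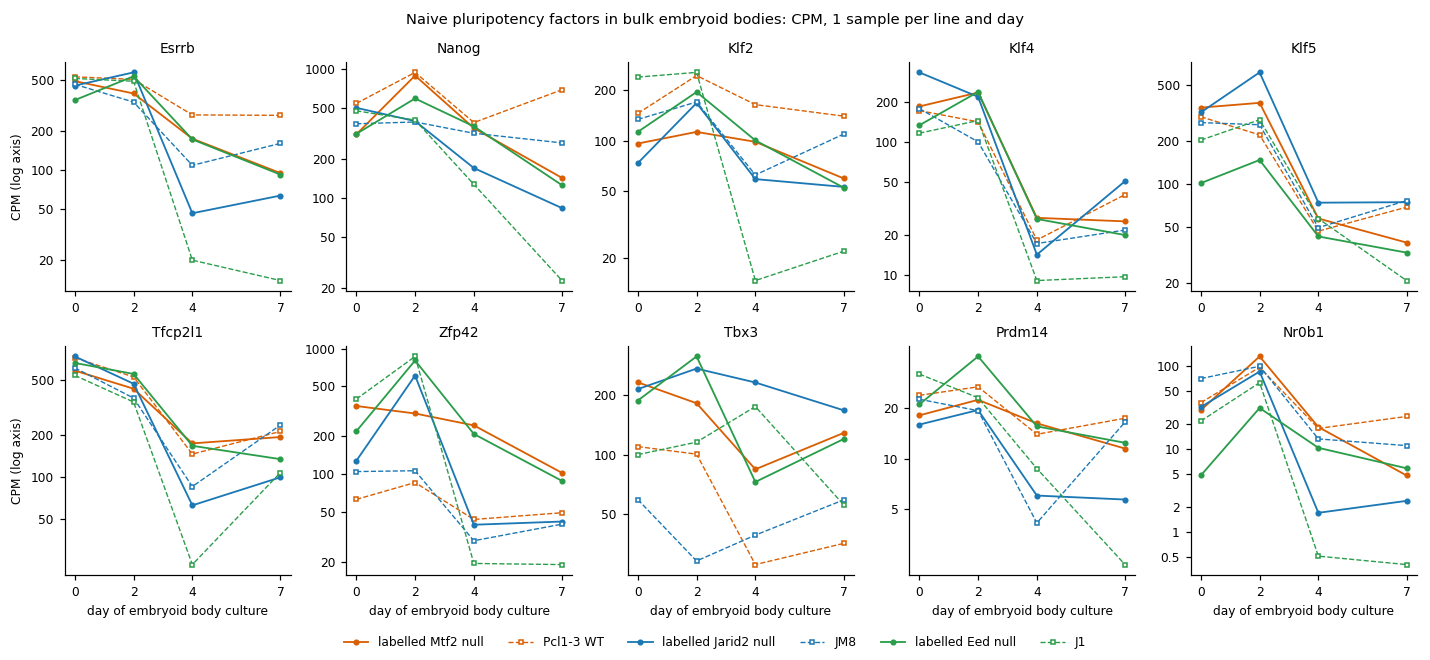
CPM (log axis) of the 10 members in bulk EBs against day, 1 sample per line and day, with filled circles and solid lines for samples labelled null and open squares and dashed lines for the matched WT line of the same colour. Tbx3 of the samples labelled Jarid2 null lies between 168 and 273 CPM, above all 4 JM8 samples.

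In single cells, 4949 cells of 16 libraries were kept by the authors, 202 to 347 per library with median depths of 4997 to 10603 UMIs per cell. Well barcodes are reused in every plate set by design. There was 1 library per genotype and day. No test was run between genotypes, and the 95% Poisson intervals given cover counting error only. Each level is the sum of a gene's UMIs relative to all UMIs of the library, on the CPM scale (UMI CPM).

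At day 0 Zfp42 was lower in the Mtf2 null and Jarid2 null libraries than in WT and higher in the Eed null library. Zfp42 was at 768 (95% interval 737 to 800.5) UMI CPM in WT, 158 (95% interval 146 to 171) in Mtf2 null, 147 (95% interval 134 to 161) in Jarid2 null and 1274 (95% interval 1236 to 1313) in Eed null. After thinning each cell to 2500 UMIs, 76% of WT cells held a Zfp42 UMI, against 27.5% of Mtf2 null, 25.7% of Jarid2 null and 86.7% of Eed null cells. The background was 0% in cluster 15, an ectodermal cluster of the authors. Unthinned, the shares were 95.9%, 68.9%, 59.6% and 93.2%, and 0.735% in cluster 15. Median depths were 8447, 10603, 9505, 9374 and 5860 UMIs. The intervals of the Mtf2 null and Jarid2 null libraries overlap, and those of WT and Eed null stand apart from them and from each other.

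Klf5 and Nr0b1 were lowest in Eed null cells at day 0. Klf5 was at 1269.9 (95% interval 1229.8 to 1311) UMI CPM in WT, 1597 (95% interval 1557 to 1637) in Mtf2 null, 1017 (95% interval 983 to 1053) in Jarid2 null and 380.5 (95% interval 360.0 to 402) in Eed null. Nr0b1 was at 398 (95% interval 376 to 421), 565 (95% interval 541 to 589), 586 (95% interval 560.3 to 613.6) and 170.2 (95% interval 157 to 185) in the same order. Eed null cells thus combined the highest Zfp42 with the lowest Klf5 and Nr0b1 of the 4 libraries, outside the counting intervals of the others. The WT line here is not the one matched to Eed null cells, so genotype and parental line cannot be told apart. In bulk EBs at day 0, Zfp42 was at 396 CPM in the WT line matched to Eed null. It was at 105 and 63.2 in the WT lines matched to Jarid2 null and Mtf2 null. Klf5 (204 against 271 and 298) and Nr0b1 (21.5 against 69.7 and 35.8) were lowest in the line matched to Eed null. The part of the parental line was not tested. In the single-cell libraries at day 0, Klf4 was at 194 UMI CPM in WT and 197 in Mtf2 null, whose intervals overlap. It was at 345 in Jarid2 null and 269 in Eed null. Tfcp2l1 was at 183 (95% interval 168 to 199) in WT and 269 (95% interval 253 to 285) in Mtf2 null. Klf5, Nr0b1 and Tfcp2l1 were thus higher in Mtf2 null than in WT in this pair of libraries too, and Klf4 was not. Primitive endoderm markers summed to 10.8 UMI CPM in these Mtf2 null cells and 8.03 in WT, far below the Mtf2 null levels of the directed series, though the scales differ. Tbx3 was at 162 (95% interval 148 to 177) in WT, 75.6 (95% interval 67.2 to 84.7) in Mtf2 null, 112 (95% interval 101 to 125) in Jarid2 null and 210.3 (95% interval 195 to 226) in Eed null. Prdm14 UMIs were few, at 14.7 UMI CPM in WT and 24.1 in Eed null. Klf2, Nanog and Esrrb ranged over the 4 libraries from 658 to 875, from 211 to 326 and from 184 to 242.

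**Figure D4:**
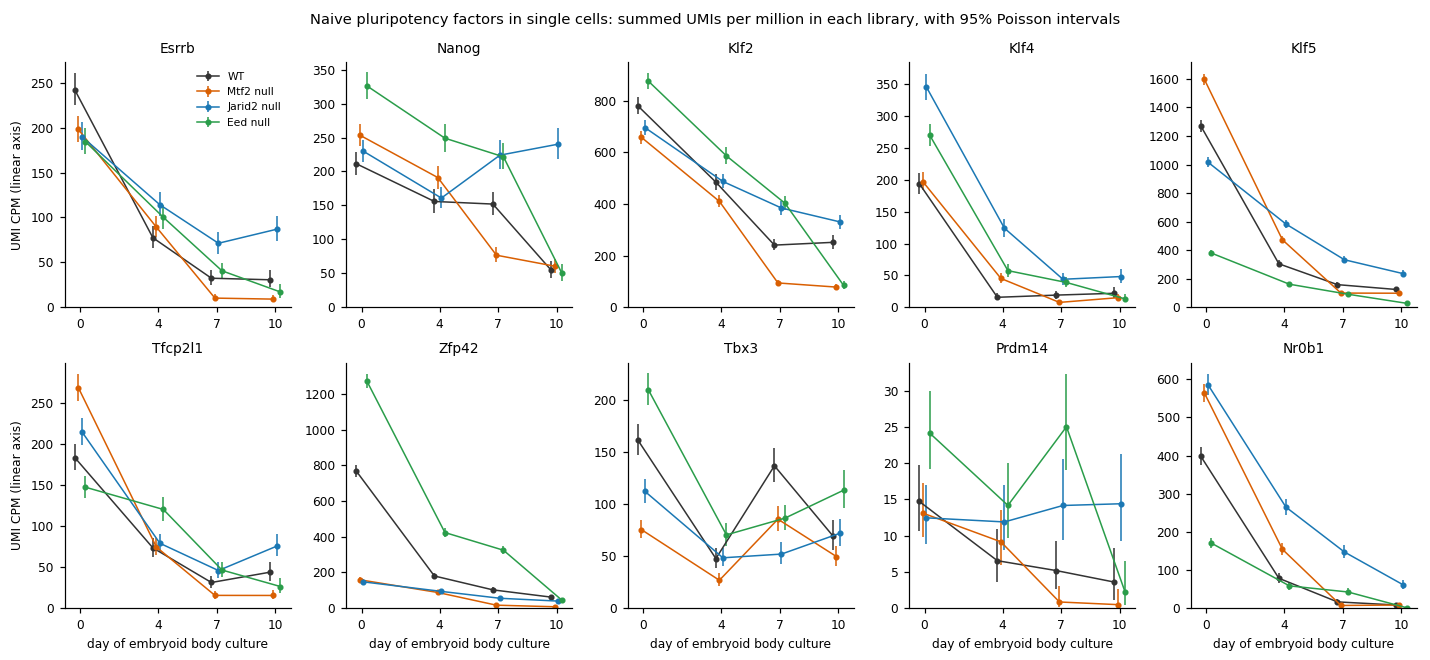
UMI CPM (linear axis) of the 10 members in single-cell libraries against EB day, with colours for the genotypes and bars for 95% Poisson intervals. Zfp42 at day 0 stands at 1274 in Eed null and 768 in WT, above 158 and 147 in Mtf2 and Jarid2 null.

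During EB culture most members were lower at day 10 than at day 0, and the Jarid2 null library held the most Esrrb, Nanog, Klf2 and Klf5 at day 10. Esrrb at days 0, 4, 7 and 10 was at 242, 77.5, 32.5 and 30.8 UMI CPM in WT, 198, 89.3, 10.4 and 9.26 in Mtf2 null, 190.0, 114, 71.4 and 87.0 in Jarid2 null and 184, 100.1, 40.8 and 17.2 in Eed null. Nanog was at 211, 156, 152 and 54.4 in WT and 229.9, 161, 224 and 240.3 in Jarid2 null, where its day 10 level was not below its day 0 level. At day 7 the Mtf2 null library had the lowest Esrrb, Klf2, Nr0b1 and Zfp42 of the 4 genotypes. Klf2 was at 779.8, 485, 241 and 252 in WT, 658, 410.2, 94.7 and 78.7 in Mtf2 null, 696, 487, 385 and 331 in Jarid2 null and 875, 586, 403 and 85.8 in Eed null. Tbx3 did not follow the others, since it was at 162, 47.6, 137 and 69.4 in WT and 210.3, 70.5, 86.6 and 113 in Eed null, with a minimum at day 4 in both.

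The number of members with a UMI in a thinned cell gives the state of single cells rather than of the mixture. At day 0 the share of cells with at least 5 of the 10 members was 59.1% in WT, 47.3% in Mtf2 null, 49.8% in Jarid2 null and 51.4% in Eed null. At day 10 it was 1.57%, 1.05%, 11.2% and 0.568% in the same order. These were 3 of 191, 3 of 286, 25 of 223 and 1 of 176 cells. Cells that still held much of the network at day 10 were thus mostly Jarid2 null. In all, 37.2% of cells of that library held none of the 10, against 56.0% in WT, 62.9% in Mtf2 null and 63.6% in Eed null. In cluster 15 and cluster 4, differentiated cells by the authors' classes (ectodermal and mesodermal), 0 of 119 and 0 of 302 cells held at least 5 members. This allows shares of up to 2.52% and 0.993%, with medians of 0 and 0. Thinning left out 492 cells, 9 to 46 per library.

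Over the 22 clusters of the authors, 4 clusters made mostly of day 0 cells held the members together, 1 per genotype. Cluster 3 (311 of 335 cells WT), cluster 0 (334 of 386 Mtf2 null), cluster 8 (250 of 265 Jarid2 null) and cluster 6 (all 303 Eed null) had medians of 4 or 5 members per thinned cell. Since cells were clustered on their expression, levels by cluster are descriptions. Zfp42 was at 821 UMI CPM in cluster 3 and 1378 in cluster 6, but 144 in cluster 0 and 125 in cluster 8. Klf4 was at 402 in cluster 8, 276 in cluster 6, 206 in cluster 3 and 193 in cluster 0. Nr0b1 was at 611.2 and 581 in clusters 8 and 0, and 423 and 186 in clusters 3 and 6. Low Zfp42 with high Nr0b1 was common to the Mtf2 null and Jarid2 null clusters, whereas high Klf4 with low Zfp42 marked the Jarid2 null cluster.

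Clusters of later days kept different subsets of the network. Cluster 17 holds 100 Jarid2 null and 25 Mtf2 null cells, 2 of its 125 cells being from day 0 and 51 from day 10. Its cells held Klf2 at 912 (853 to 975) UMI CPM, Klf5 at 605.9, Esrrb at 206 and Tfcp2l1 at 133. In clusters 0, 3 and 8, made up mostly of day 0 cells, Klf2 was at 676, 778 and 664 and Esrrb at 206, 239 and 174. Klf5 of those clusters was higher than in cluster 17, at 1516, 1297 and 1019, and so was Tfcp2l1, at 273, 185 and 213, with intervals that did not overlap those of cluster 17. Klf4 of cluster 17 was at 19.7 (11.9 to 30.8) and Tbx3 at 11.4 (5.71 to 20.5). The shares of cells of cluster 17 with a UMI, unthinned, were 94.4% for Klf2, 64.8% for Esrrb, 8.8% for Klf4 and 8.00% for Tbx3, against 15.4%, 2.21%, 2.94% and 11.0% in cluster 15, at median depths of 6821 and 5860 UMIs. Tbx3 of cluster 17 was at or below that background, Klf4 was low, and Klf2 and Esrrb were far above it. Cluster 10, all 244 cells Eed null and 126 of them from day 7, held Nanog at 383 and Zfp42 at 647 UMI CPM with Klf5 at 183 and Nr0b1 at 80.1. Cluster 12, with 208 of 228 cells WT and 114 from day 4, held Klf2 at 602 and Zfp42 at 297 with Klf4 at 18.7. In clusters 12 and 17 Klf2 was thus high where Klf4 was low.

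Tbx3 had its highest point level in a differentiated cluster. It was at 273 (225 to 328) UMI CPM in cluster 21, the endodermal cluster of the authors (47 cells), 223 (207 to 241) in cluster 6, 167 (152 to 182) in cluster 3, 143 (125 to 164) in cluster 14 and 133 (119 to 149.6) in cluster 4, a mesodermal cluster. In this order all neighbours but clusters 6 and 3 have overlapping intervals. Cluster 21 also held Klf5 at 261 (214 to 315), with a UMI in 36.2% of cells, and Klf4 at 47.9 (29.2 to 73.9), in 21.3%. Klf2 was at 43.1 and Tfcp2l1 at 28.7 there. In cluster 21 Esrrb was at 7.18, Nanog at 21.5 and Zfp42 at 7.18, while Nr0b1 and Prdm14 had 0 UMIs. A count of 0 in 47 cells allows up to 6.38% of cells to hold one. Prdm14, needed for primordial germ cell formation, was at 30.7 UMI CPM in cluster 20 (49 cells), with 14.3% of cells holding a UMI. Esrrb had 0 UMIs there, which allows up to 6.12% of cells. The Prdm14 interval of cluster 20 (15.3 to 54.9, from 11 UMIs) overlaps those of cluster 17, at 33.3, and cluster 10, at 29. It also overlaps those of clusters 6, 5, 3, 0, 9, 2 and 8.

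**Figure D5:**
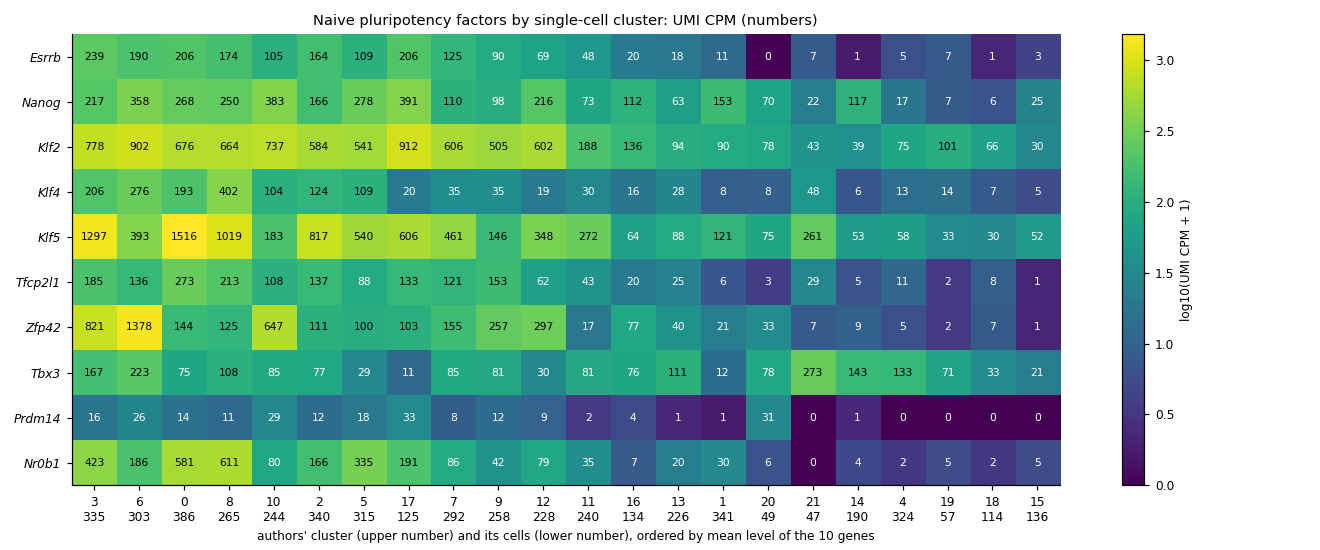
UMI CPM (numbers) of the 10 members in each cluster of the authors, coloured by log10(UMI CPM + 1), with clusters ordered by the mean level of the members and cell numbers under the cluster names. Cluster 17 shows 912 for Klf2 beside 19.7 for Klf4 and 11.4 for Tbx3, and cluster 21 shows 273 for Tbx3.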

How the data were processed

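RNA was measured in 48 bulk libraries of directed differentiation, 24 bulk EB samples and 16 single-cell EB libraries, grouped by the labelled genotype and time. The endoderm columns named 28h belong to samples labelled 48 h.

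For directed differentiation the authors deposited estimated counts per gene from Salmon. These expected counts were rounded to whole numbers, and totalled 9111880 to 16898264 per library. The bulk EB files hold a signal that the authors made by dividing gene counts by size factors. Whole reads were recovered from 45 of 46 columns, in which 100% of values came out whole within 0.02 reads. Columns of the same line and day, most of them headed r1 and r2, were added, giving 4071242 to 30457254 reads per sample. The study's methods call bulk duplicates technical, and the spread between these columns was not used in the tests. The other column, which belongs to the day 0 sample labelled Mtf2 null, was left out. Its values also came out whole within that tolerance, at 4938980 reads. The test on recovered reads with edgeR called 3 genotype pairs and 6 day pairs. For single cells the authors deposited UMI counts per gene and well (SORT-seq plates, Bowtie2 and HTSeq on GRCm38/mm10, cells under 500 genes removed) and Seurat cluster numbers, which were used as given. Doublets were not called here. The bulk values carry no molecular identifiers.

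Directed libraries were tested with edgeR 4.0.16 (quasi-likelihood, TMM scaling, filterByExpr) in R 4.3.3, with 1 mean per genotype and time and all libraries of a series in a fit. A call needed an adjusted p under 0.001 and an absolute log2 fold change above 1. EB samples were tested with limma 3.58.1 on log2 CPM with a prior count of 2 and genes at 1 CPM or more in 4 samples, at an adjusted p under 0.05, with the day (genotypes) or line (days) as a block. Both fits were tested on simulated data. DESeq2 1.42.0 was an alternative, beside other scalings, filters, limits, replicate numbers and left-out libraries. All 10 members were named, with the targeted genes and up to 4 called genes with the largest change from each list (LIF and STAT3 pathway, other naive-state genes, core pluripotency, formative and primed genes, exit regulators, other Klf genes) and the lists of cell type markers. The members and lists were chosen with earlier results of these data known. Single-cell intervals are exact Poisson intervals at 95%, and the limit for a count of 0 is 3 counts. Both cover counting error only. The promoter and position tables are on GRCm38, the build named in the submitters' processing notes.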

Additional observations from a re-analysis of the deposited data

Results flagged for a closer look

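The results below were taken out for a closer look because the same change differed between genotypes or between protocols by a test of the difference itself. From undifferentiated to 5 h in the mesoderm series, the Mtf2 null change differed from the WT change by -1.61 for Klf4, -1.55 for Klf5, -1.41 for Esrrb and -1.17 for Nr0b1 on the log2 scale. In the endoderm series at 5 h the differences were -1.97 for Prdm14, -1.58 for Klf5, -1.54 for Esrrb, -1.49 for Klf4, -1.40 for Tbx3, -1.23 for Tfcp2l1 and -1.01 for Nr0b1. At 24 h they were -1.35 for Klf5 and -1.27 for Esrrb in mesoderm and -1.45 for Klf5, -1.22 for Tfcp2l1 and -1.02 for Nr0b1 in endoderm. At 48 h they were -1.71 for Klf4 and -1.53 for Klf5 in mesoderm and -1.80 for Klf5 and 2.30 for Tbx3 in endoderm, where Tbx3 was the 1 difference above 0 of the 20 called. The WT undifferentiated libraries enter each of these differences as the starting point, and their replicates lay far apart for most members.

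Between the protocols, the 48 h change in mesoderm less that in endoderm was -1.35 for Nr0b1, 1.13 for Nanog, 1.26 for Tfcp2l1, 1.55 for Klf2, 2.51 for Klf4 and 2.73 for Tbx3 in WT and -2.30 for Nr0b1, 1.33 for Tfcp2l1, 1.99 for Klf4 and 2.41 for Tbx3 in the libraries labelled Jarid2 null.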

How the results depend on the processing

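Each call named in the report kept its direction under every alternative run. Among member-by-contrast pairs, dropping the fold limit and using an adjusted p under 0.05 called 67 genotype pairs in place of 28, 123 time pairs in place of 60, 44 genotype-by-time pairs in place of 20 and 14 undifferentiated pairs in place of 5. Without a filter on low counts 31 genotype-by-time pairs were called, and with DESeq2 30. The cause was not tested. Leaving out 1 library at a time gave 27 to 31 genotype pairs, 58 to 65 time pairs, 13 to 26 genotype-by-time pairs, 7 to 10 mesoderm-against-endoderm pairs and 5 undifferentiated pairs each time. The lowest genotype-by-time count, 13, was reached without endoderm Mtf2 null 5 h replicate 2 and without endoderm WT undifferentiated replicate 2. A group left with 1 library was assumed to vary like the others. In bulk EBs, the genotype pairs were 1 to 3 without 1 day (1 without day 0), 1 with days 0 and 2 alone and 1 without a block for the day. The day pairs were 0 to 11 without 1 line (0 without JM8). The summed level of the members in WT single cells at day 10 was 15.9% of that at day 0, and 18.3% as the mean of each cell's own shares. Of the 160 levels of a member in a single-cell library, 51 lay outside their counting interval as that mean and 60 after thinning to 2500 UMIs per cell. With the replicate number as a block, 28, 59, 20, 5 and 10 pairs were called for genotype, time, genotype by time, undifferentiated and lineage. Within a series the numbers do not pair the samples, since deviations of same-numbered libraries correlated above 0.1 in 6 of 66 pairs in mesoderm and 4 of 66 in endoderm. Across the series the undifferentiated libraries do share their number, and adding same-numbered ones together called 5 undifferentiated pairs.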

Other observations

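Among marker lists whose undifferentiated genotype differences are not given above, undifferentiated Mtf2 null cells had lower 2-cell-like transcripts, with 2 of 3 tested genes called. Over all genes tested, 14.5% were called in this comparison. Zscan4f differed by -5.72 (SE 0.55, adjusted p = 4.81e-07) and Zscan4d by -4.80 (SE 0.72, adjusted p = 4.74e-05) on the log2 scale. These genes are near-identical copies that share reads, so the split between them is uncertain. Tfap2c, a trophoblast and germ cell factor, was higher (1.49, SE 0.12, adjusted p = 8.37e-08), 1 of 3 trophoblast genes tested, and Tbx20, a T-box factor of the heart, was higher (2.61, SE 0.21, adjusted p = 6.85e-08), 1 of 2 mesoderm genes tested. Sycp3, a component of the synaptonemal complex of meiosis, was lower (-1.43, SE 0.13, adjusted p = 2.07e-07), 1 of 4 germ cell genes. None of the 4 neural ectoderm and none of the 2 feeder fibroblast genes tested was called by edgeR (2 and 2 at an unadjusted p under 0.05). In the libraries labelled Jarid2 null none of these lists had a called gene, beside 1.1% of all genes tested. Genes at an unadjusted edgeR p under 0.05 numbered 0, 1, 2, 3, 0 and 0 among the 2-cell-like, trophoblast, mesoderm, germ cell, neural ectoderm and feeder lists.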
